A study of Danio rerio with 12 samples.

Results

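The genes described here are the translation initiation factors (eIF) and elongation factors (eEF) of zebrafish, measured in microglia picked from larval brains. They are all gene IDs of the count table whose symbol begins with eif1 to eif6 or with eef1 or eef2, without the eIF2 kinases. This gave 80 of 35117 gene IDs, 62 initiation IDs and 18 elongation IDs. Many of them carry symbols in the capitals used for human genes, which stand for the zebrafish gene with that ID. Poly(A) RNA was amplified by Smart-seq2, a full-length cDNA method, from 12 tubes of 3 DsRed-positive cells each, picked by hand from dissociated brains of about 10 embryos at 3 dpf (days post fertilisation). All fish carried Tg(mpeg1:DsRedx), a reporter driven by the mpeg1 promoter, which is active in macrophages and microglia alike. The 4 groups of 3 tubes were siblings, mafba mutants, mafbb mutants and DMut, a label that the sources used here do not spell out and that is read as mutant in both genes. The sources used here name neither the mutant alleles nor the genotype of the siblings beyond that word. They do not say if tubes of 1 genotype were picked from separate dissociations, and p-values therefore cover the spread between tubes, which may be technical.

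Translation starts when eIF2 brings the initiator tRNA to the small ribosomal subunit, eIF3 holds the parts together, and the eIF4 factors load the complex on the capped end of the mRNA. eIF1, eIF1A and eIF5 select the start codon. In elongation, eEF1A carries each aminoacyl-tRNA to the ribosome, the eEF1B complex recharges eEF1A with GTP, and eEF2 moves the ribosome by a codon. In mammals, mRNAs of elongation factors and ribosomal proteins share a pyrimidine-rich start through which the TOR pathway controls their translation.

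Of each tube's counts, 9982659 to 17609231 fell on genes, and 5100 to 10521 genes had at least 1 count. The mafbb tubes had the fewest genes, 5100 to 6141, and the largest spike-in share, 0.662% to 0.798% of all counts against 0.0946% to 0.452% in the other tubes. mafba replicate 2 had the most genes, 10521, and the largest share of cell cycle markers, 0.355% of gene counts. mafbb had 0 counts in 9 tubes and was under 2 CPM (counts scaled to library size with TMM factors) in the others. The microglia label held in siblings, where the 12 matched marker IDs took 4.39% to 6.35% of gene counts, against 1.23% to 5.47% in mafba and 1.95% to 3.94% in mafbb. In DMut they took 0.101% to 0.144%. There apoeb, apoc1, lgals3bp.1, P2RY12 and the c1q genes had 0 counts, while csf1ra, csf1rb, SLC7A7, havcr1 and ccl34b.1 were still counted. Of these, csf1ra had more counts in DMut (8506) than in siblings (6308). The others had fewer, csf1rb 2052 against 2758, SLC7A7 9693 against 59008, havcr1 17539 against 56739 and ccl34b.1 1218 against 354419. The list was split in both single mutants too, in raw counts not scaled to depth. apoeb, the marker with the most counts, had 1239211 in siblings, 647919 in mafba and 701192 in mafbb. Fewer counts than in siblings were also found for apoc1, lgals3bp.1, SLC7A7, ccl34b.1, c1qa and c1qc. More were found for csf1ra, csf1rb, P2RY12, c1qb and havcr1.

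Elongation factors took a larger part of the gene counts in DMut than in any other group, whereas the parts taken by initiation factors overlapped between all groups. The 18 elongation IDs together held 0.545%, 0.798% and 0.514% of gene counts in the sibling tubes and 1.21%, 1.3% and 1.48% in the DMut tubes. The mafba tubes held 0.790%, 0.433% and 0.873%, and the mafbb tubes 0.593%, 0.794% and 0.896%. Every DMut tube lay above all 9 other tubes, and the mean in DMut, 1.33% ± 0.138 (SD, n = 3), was 2.15 times the 0.619% ± 0.156 in siblings. The 62 initiation IDs held 0.793% ± 0.0645 for siblings, 0.857% ± 0.136 for mafba, 0.795% ± 0.0764 for mafbb and 0.817% ± 0.166 for DMut. These groups overlapped, and DMut replicate 2 had the lowest value of all tubes, 0.630%. Per initiation count there were 0.788 ± 0.234 elongation counts for siblings, 0.801 ± 0.184 for mafba, 0.955 ± 0.154 for mafbb and 1.67 ± 0.349 for DMut. A sum over genes was given no test.

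**Figure D1:**
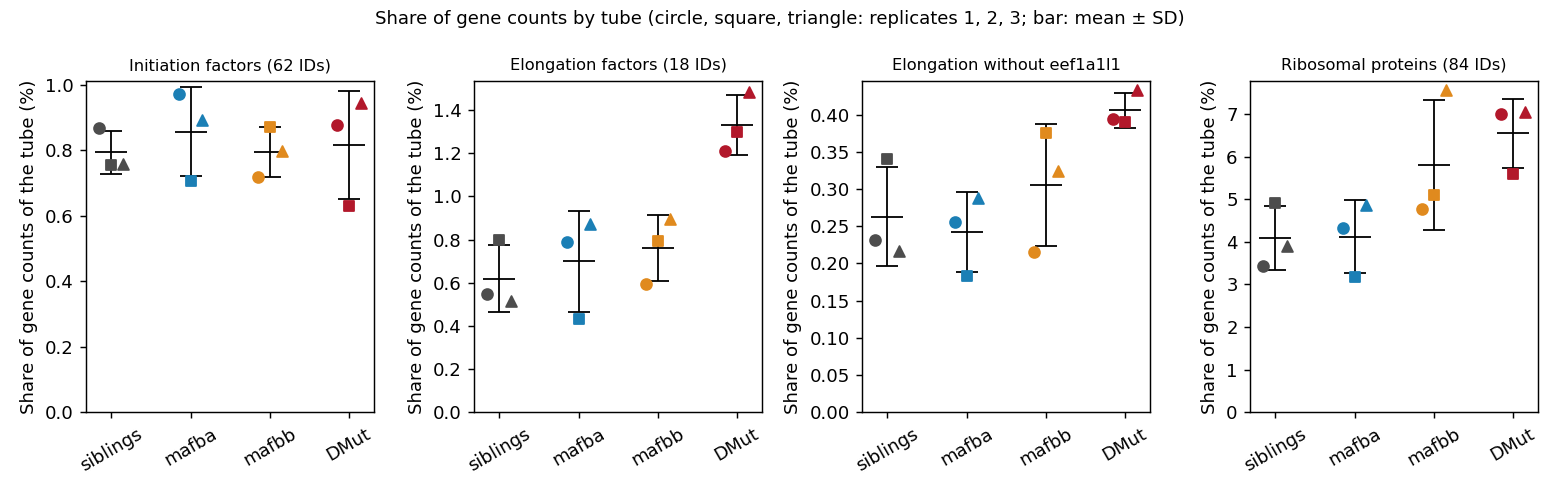
Share of each tube's gene counts (%, linear axes from 0) held by initiation factors, elongation factors, elongation factors without eef1a1l1, and ribosomal proteins, in 4 genotypes of 3 tubes, with symbols for replicates and bars for mean ± SD. The DMut tubes lie above all others for elongation factors, with and without eef1a1l1. For initiation factors they overlap with the others, and DMut replicate 2 is the lowest of all tubes.

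1 gene, eef1a1l1 (ENSDARG00000020850), which encodes the tRNA carrier eEF1A, held most elongation counts. It was the only one of the 68 tested members that edgeR's quasi-likelihood test called in any of the 8 comparisons made between genotypes, and DESeq2 did not call it. Its level was 2712, 4943 and 2985 CPM in siblings and 7416, 10575 and 12446 CPM in DMut. The mafba tubes had 4999, 2856 and 6077 CPM and the mafbb tubes 3455, 3765 and 5288 CPM. The lowest DMut tube was above the highest tube of every other group, and the single mutants overlapped with siblings.

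Against siblings, eef1a1l1 rose 2.86-fold in DMut (ratio of mean CPM), a log2 fold change of 1.52 ± 0.28 (SE), with an adjusted p of 0.00753 (edgeR quasi-likelihood test, Benjamini-Hochberg over 9519 genes). In that comparison 0.714% of all genes tested were called, 0.252% as higher and 0.462% as lower. Against mafbb the log2 fold change in DMut was 1.28 ± 0.28 (adjusted p = 0.0301), where 0.725% of genes were called. Against mafba it was 1.13 ± 0.28, which missed the threshold of 0.05 (adjusted p = 0.113, 0.399% of genes called). The test of any difference among the 4 genotypes also called the gene (adjusted p = 0.0114, 0.840% of genes called). The call against mafbb was lost without mafbb replicate 1 or 2 or DMut replicate 2 or 3 (edgeR adjusted p from 0.104 to 0.110), with DESeq2 size factors (0.0628), no filter (0.089) or robust=FALSE (0.0682), and in DESeq2 (adjusted p = 1). That over all genotypes was lost without DMut replicate 2 (0.102) or 3 (0.0687) and in DESeq2 (adjusted p = 1). Against mafba the gene was called without siblings replicate 2 (edgeR adjusted p = 0.0178), mafba replicate 3 (0.0152) or DMut replicate 1 (0.0172). The 3 DMut comparisons share the DMut tubes.

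Against siblings, edgeR called eef1a1l1 in neither single mutant. The log2 fold change was 0.39 ± 0.28 for mafba (adjusted p = 1) and 0.23 ± 0.28 for mafbb (adjusted p = 0.945). The interaction, the part of the DMut difference that the 2 single-mutant differences do not add up to on the log2 scale, was 0.89 ± 0.39. It missed the threshold (unadjusted p = 0.0328, adjusted p = 0.382), and in this contrast 13% of all genes had an unadjusted p under 0.05 and 0.210% were called. The call against siblings was lost without siblings replicate 1 (adjusted p = 0.0569) and in DESeq2 (adjusted p = 1, log2 fold change 1.46).

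The counts of the eEF1A family lay almost wholly on this ID, which held 98.5% to 100% of them in every tube. The 4 other eEF1A IDs are close paralogues, and nothing states how reads shared between copies were counted, which leaves the split between copies uncertain. eef1a1l3 (ENSDARG00000071727), the paralogue nearest in name, had 0 counts in all 12 tubes, and so had eef1a2. The 2 IDs with the symbol EEF1A1 reached 38.4 CPM in mafba replicate 3 and 79.0 CPM in mafbb replicate 3, and neither had a count in siblings or DMut. eef1a1l1 made up 57.5% ± 0.192 of elongation counts for siblings, 64.1% ± 5.46 for mafba, 60.0% ± 6.38 for mafbb and 69.4% ± 1.71 for DMut.

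Without eef1a1l1 the other 17 elongation IDs held 0.232%, 0.340% and 0.217% of gene counts in siblings and 0.394%, 0.391% and 0.433% in DMut. The groups did not overlap, with a ratio of means of 1.54. Values in mafba were 0.256%, 0.183% and 0.288%, and in mafbb 0.216%, 0.376% and 0.324%, all below the DMut tubes.

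The 5 IDs grouped as the eEF1 exchange complex, which reloads eEF1A with GTP, include EEF1E1 of the multi-tRNA-synthetase complex. Together they held 0.156% ± 0.0182 of gene counts for siblings, 0.147% ± 0.0343 for mafba, 0.177% ± 0.034 for mafbb and 0.247% ± 0.049 for DMut. EEF1B2, the catalytic subunit eEF1B alpha of the exchange complex, was at 658, 867 and 765 CPM in siblings and at 1103, 1283 and 1668 CPM in DMut. The mafba tubes were at 667, 582 and 1093 CPM and the mafbb tubes at 703, 709 and 1065 CPM. All DMut tubes were above all others, but the log2 fold change of 0.82 ± 0.33 against siblings was not called by edgeR (unadjusted p = 0.0177, adjusted p = 0.393).

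EEF1D and eef1da, 2 IDs for the further exchange subunit eEF1B delta, gave log2 fold changes of 1.55 ± 0.93 (adjusted p = 0.526) and 1.02 ± 0.67 (adjusted p = 0.637) in DMut against siblings. EEF1D was at 41.6, 53.1 and 114 CPM in siblings, at 173, 172 and 266 CPM in DMut, at 141, 106 and 153 CPM in mafba and at 40.1, 78.2 and 94.5 CPM in mafbb. Here too the DMut tubes lay above all others. eef1da was at 80.3, 125 and 263 CPM in siblings and at 254, 327 and 367 CPM in DMut, which overlapped. EEF1G, the structural subunit eEF1B gamma, was at 368, 807 and 416 CPM in siblings and at 548, 646 and 1252 CPM in DMut, which overlapped as well (0.62 ± 0.42, adjusted p = 0.688).

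EEF1E1, which in mammals belongs to the multi-tRNA-synthetase complex, behaved otherwise. Its levels were 43.4, 28.6 and 14.5 CPM in siblings, 0, 19.9 and 16.8 CPM in mafba and 0, 20.2 and 36.2 CPM in DMut. All 3 mafbb tubes had 0 counts, at least 413-fold lower than siblings by a floor of 3 counts over the group, a bound that covers counting error only. edgeR did not call it (adjusted p = 0.263), whereas DESeq2 did (adjusted p = 0.00255).

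Of the 4 IDs for the translocase eEF2, eef2b held 92.8% to 100% of the counts in every tube. It was at 756, 1731 and 558 CPM for siblings, 789, 791 and 1109 CPM for mafba, 652, 1501 and 1140 CPM for mafbb and 1441, 2038 and 1524 CPM for DMut. DMut lay above mafba in every tube and overlapped with siblings and mafbb. The log2 fold change was 0.72 ± 0.35 against siblings (unadjusted p = 0.046, adjusted p = 0.393). eef2a.1, a second eEF2 ID, was at 49.4, 35.8 and 16.9 CPM in siblings and had 0 counts in all mafba tubes, at least 506-fold lower by the same floor. edgeR did not call it (adjusted p = 0.608), whereas DESeq2 did (adjusted p = 1.37e-12). Its values were 0.0832, 30.6 and 0 CPM in mafbb and 0, 42.7 and 12.6 CPM in DMut, so that it came and went between tubes of the same genotype.

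The 4 enzymes that modify elongation factors held under 0.01% of gene counts in every tube. Their share was 0.00554% to 0.00787% in mafba, above all sibling tubes (at most 0.00304%), and overlapped between mafba and DMut (at most 0.00584%). EEF2K, the kinase that inhibits eEF2, was at 0, 0 and 21.3 CPM in siblings and at 36, 0 and 4.79 CPM in DMut. EEF1AKMT4, a lysine methyltransferase of eEF1A in mammals, had 0 counts in siblings and 16.9, 17.4 and 0 CPM in DMut (unadjusted p = 0.0476, adjusted p = 0.393). It was not particular to DMut. In mafba against siblings edgeR gave a log2 fold change of 9.76 (unadjusted p = 0.0529, adjusted p = 0.608), which ran from 0 to 10.3 with tubes left out. In DMut against mafba the log2 fold change was 0.46. Genes at these levels were found in some tubes of a genotype and not in others.

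**Figure D2:**
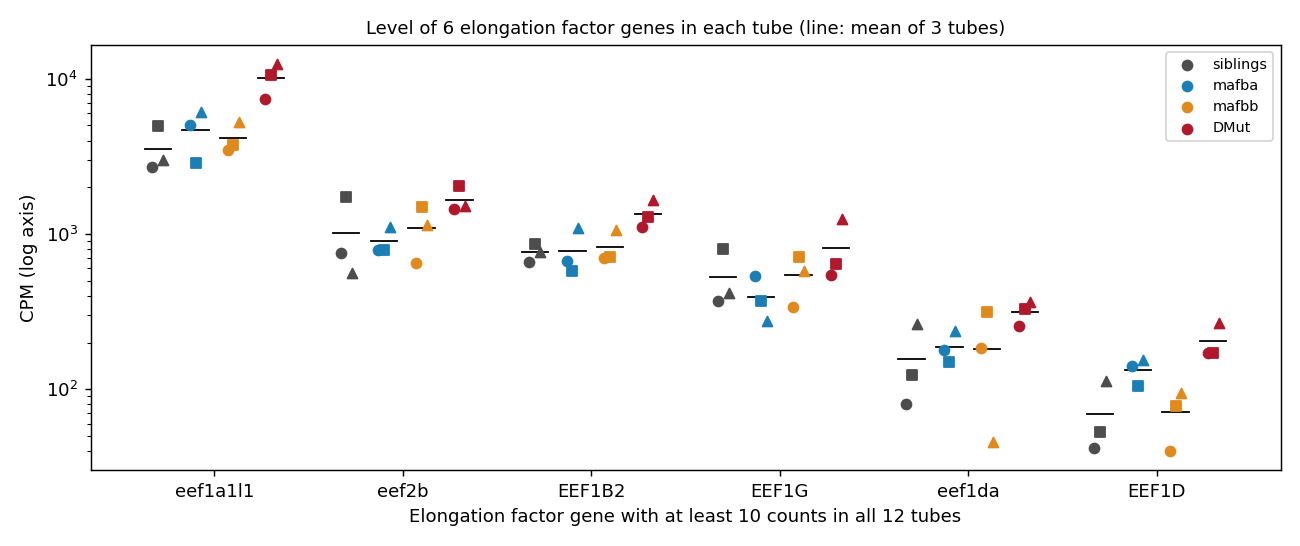
CPM (log axis) of the 6 elongation factor genes with the largest mean level, in each of 12 tubes; circle, square and triangle are replicates 1, 2 and 3, colours are genotypes and lines are group means. The DMut tubes stand above all other tubes for eef1a1l1, EEF1B2 and EEF1D and above the mafba tubes for all 6.

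The 6 elongation IDs with the largest mean CPM over the 12 tubes all had log2 fold changes above 0 in DMut against siblings, from 0.62 to 1.55 with a median of 0.92. They are also the elongation IDs with at least 10 counts in every tube. Of all 1468 genes counted that fully, 772 were above 0 and their median was 0.059; this class holds no gene that fell to few counts. In the same DMut comparison 21 of the 31 fully counted initiation IDs were above 0, with a median of 0.37. For the 6 elongation IDs the range was -0.42 to 0.94 in mafba and 0.029 to 0.23 in mafbb. Of the 11 elongation IDs tested, 6 had every DMut tube above every mafba tube, where 7.39% of all genes did, and 3 had every DMut tube above every sibling tube, where 9.86% did. The same 3, eef1a1l1, EEF1B2 and EEF1D, were above every mafbb tube, where 13.5% of all genes were higher without overlap.

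**Figure D3:**
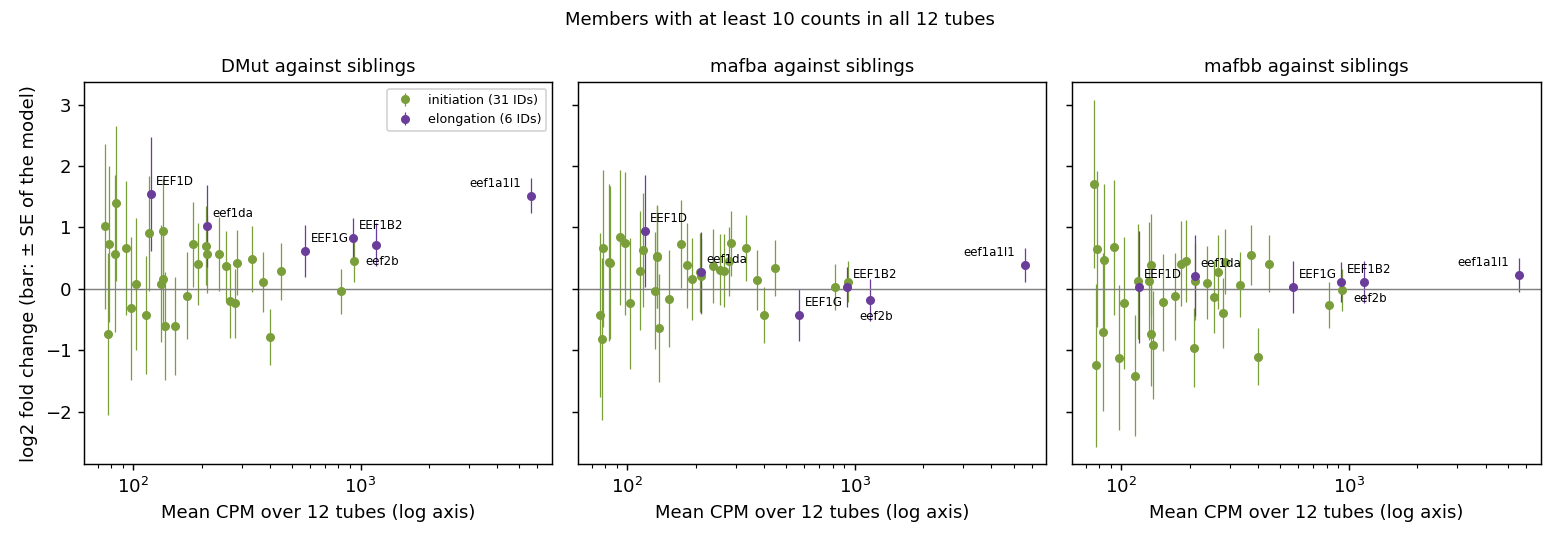
Log2 fold change against siblings (y axis, bars ± SE of the model) by mean CPM over 12 tubes (log axis) for the 37 members with at least 10 counts in every tube, in DMut, mafba and mafbb. The 6 elongation factors lie between 0.62 and 1.55 in DMut and between 0.029 and 0.23 in mafbb, and initiation factors lie on both sides of 0 in each panel.

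None of the 57 initiation IDs tested was called by edgeR in any comparison, whereas against siblings DESeq2 called EIF2D and eif4ebp3 in DMut, eif4ebp3 in mafba, and EIF2B4, EIF2S1, EIF4E and eif4eb in mafbb. In mafbb against siblings edgeR gave -8.00 ± 3.51 (log2) for the EIF2S1 ID ENSDARG00000005827 and 0.12 ± 0.93 for ENSDARG00000052178. The second ID held 62.4% of the counts of both in siblings and 99.8% in mafbb. DESeq2 called many more of all genes than edgeR in DMut and mafba, and its number in mafbb is not given here. Its calls are therefore no result about the members. In DMut against siblings 3 of the 57 initiation IDs had an unadjusted p under 0.05, 1 higher and 2 lower, where 12.5% of all genes did. As higher, 4 of the 11 elongation IDs tested did, beside 7.63% of all genes, with EEF1AKMT4 at 0 counts in siblings among them. In mafba against mafbb 0.0420% of all genes and 0 members were called. The median log2 fold change of the tested initiation IDs was 0.16 in DMut, 0.27 in mafba and -0.024 in mafbb. Over all 9519 genes these medians were 0.065, 0.11 and -0.20. Those of the 11 elongation IDs tested were 0.82, 0.27 and 0.11. Setting the genes with 0 counts in a group to their bound left all 6 list medians as they were. Each bound stayed on the same side of its median, so the medians could not move. A member that passed the count filter through 1 group alone can only be higher there, so these medians describe and test nothing.

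Of the start site factors, EIF1 was lower in mafbb than in siblings in every tube, without passing the test. It was at 362, 905 and 447 CPM for siblings, 467, 392 and 419 CPM for mafba, 316, 300 and 182 CPM for mafbb and 325, 264 and 406 CPM for DMut. The log2 fold change was -1.10 ± 0.46 in mafbb (unadjusted p = 0.0217, adjusted p = 0.263) and -0.78 ± 0.46 in DMut (adjusted p = 0.503). Its share of the counts of both eIF1 IDs was 92.0% for siblings, 86.4% for mafba, 77.8% for mafbb and 70.4% for DMut, the rest being EIF1B. EIF5, which triggers GTP hydrolysis by eIF2 at the start codon, was at 321, 151 and 484 CPM in siblings and at 380, 518 and 510 CPM in mafbb, which overlapped (0.56 ± 0.49, adjusted p = 0.736). The 6 IDs of this role together held 0.110% ± 0.0103 of gene counts in siblings and 0.0906% ± 0.022 in DMut.

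eIF2 and the factors that can replace it held 0.0645% ± 0.00298 of gene counts for siblings, 0.0702% ± 0.0139 for mafba, 0.0747% ± 0.0346 for mafbb and 0.0642% ± 0.018 for DMut. EIF2D, which can deliver tRNA without eIF2, was at 0, 24.9 and 30.6 CPM in siblings and had 0 counts in all DMut tubes (unadjusted p = 0.0224, adjusted p = 0.393). 1 sibling tube and 1 mafba tube also had 0 counts, so DMut overlapped with siblings and mafba. Every mafbb tube lay above the DMut tubes, and mafbb replicate 3 reached 109 CPM. edgeR did not call DMut against mafbb either (unadjusted p = 0.0167, adjusted p = 0.24).

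The 5 IDs of eIF2B, the exchange factor that reloads eIF2 with GTP and that phosphorylated eIF2 blocks, took 0.00395% to 0.0292% of gene counts per tube. EIF2B1 was at 56.0, 123 and 19.0 CPM in siblings and at 0, 18.2 and 15.4 CPM in DMut, which did not overlap (adjusted p = 1). EIF2B4 was at 0, 0.908 and 0 CPM in siblings and at 49.5, 9.23 and 14.8 CPM in DMut, higher in every tube (adjusted p = 0.439). It was at 41.9, 9.88 and 0.135 CPM in mafba and at 0, 174 and 0.459 CPM in mafbb, where 1 tube held nearly all counts. The subunits of a complex thus lay on both sides of siblings, and neither passed the test.

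The 17 eIF3 IDs held 0.195% ± 0.0119 of gene counts for siblings, 0.221% ± 0.054 for mafba, 0.196% ± 0.0246 for mafbb and 0.218% ± 0.0467 for DMut. EIF3B, a core subunit, was at 395, 236 and 163 CPM for siblings, 433, 216 and 612 CPM for mafba, 495, 135 and 203 CPM for mafbb and 274, 327 and 507 CPM for DMut. These ranges overlapped throughout. EIF3K, a small peripheral subunit, was at 76.3, 45.7 and 6.94 CPM in siblings and at 179, 101 and 141 CPM in mafbb, above every sibling tube (1.71 ± 1.37, adjusted p = 0.659). Chosen after their values were seen, EIF3D, EIF3F and EIF3I had every DMut tube above every sibling tube. EIF3D, a subunit that can bind the cap, was at 67.8, 283 and 227 CPM in siblings and at 335, 312 and 295 CPM in DMut. With EIF4B, EIF4G1 and EIF2B4 they made 6 of 57 initiation IDs, beside 9.86% of all genes.

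The cap-binding and helicase group eIF4F with its helpers, 18 IDs, held 0.207% ± 0.048 of gene counts for siblings, 0.230% ± 0.0529 for mafba, 0.185% ± 0.0232 for mafbb and 0.206% ± 0.0408 for DMut. eif4a1a, the helicase that unwinds the leader, was at 1029, 628 and 925 CPM for siblings, 899, 916 and 824 CPM for mafba, 499, 953 and 705 CPM for mafbb and 538, 521 and 1448 CPM for DMut. The DMut tubes held values near the low end of the other groups and 1 above all of them, and the log2 fold change was -0.042 ± 0.37 (adjusted p = 1). EIF4A2, a further helicase ID, had 0 counts in siblings and was at 35, 0.351 and 0 CPM in DMut and at 0.250, 0 and 118 CPM in mafbb, so that its unadjusted p-values of 0.0373 and 0.0239 each rested on 1 tube.

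Among the 7 eIF4E IDs, which bind the cap itself, the largest number of counts lay on eif4e1c in 8 of 12 tubes. EIF4E and eif4eb had 0 counts in all 3 mafbb tubes. EIF4E was at 0.0672, 0.202 and 51.6 CPM in siblings and at 57.0, 45.3 and 24.8 CPM in mafba. eif4eb was at 57.2, 27.5 and 16.4 CPM in siblings and at 0, 1.54 and 0 CPM in mafba, and its mafbb value was at least 483-fold lower than siblings by the floor. In mafbb against siblings edgeR called neither (adjusted p = 0.263 for both), whereas DESeq2 called EIF4E (adjusted p = 0.00551) and eif4eb (adjusted p = 7.96e-11). As stated above, DESeq2 calls are no result about the members. The EIF4E difference rested on sibling replicate 3, and its edgeR log2 fold change ran from -11.4 to -3.89 with tubes left out. In DMut the tubes of EIF4E and eif4eb overlapped with siblings.

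Of the proteins that restrain eIF4E, eif4ebp1, a TOR target that blocks eIF4E when not phosphorylated, was at 438, 248 and 428 CPM for siblings, 572, 306 and 530 CPM for mafba, 766, 283 and 433 CPM for mafbb and 270, 390 and 697 CPM for DMut. The groups overlapped (0.28 ± 0.46 in DMut, adjusted p = 1). The ID eif4ebp3 had 0 counts in siblings and mafbb, was at 68.9, 0 and 14.6 CPM in mafba (unadjusted p = 0.0331, adjusted p = 0.608) and at 0, 0 and 13.2 CPM in DMut. EIF4EBP3, another ID whose symbol differs only in its capitals, was counted in every genotype and went the other way in mafba. There its log2 fold change against siblings was -0.65, with every mafba tube below every sibling tube. For DMut the change was 0.94 and for mafbb -0.024, both with overlapping tubes, and edgeR called EIF4EBP3 in no comparison. eif4enif1, which carries eIF4E into the nucleus, was at 9.88, 0.101 and 23.2 CPM in siblings and had 0 counts in DMut (unadjusted p = 0.0483, adjusted p = 0.393). The whole role held 0.0659% ± 0.0121 of gene counts in siblings and 0.0653% ± 0.0225 in DMut.

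eif5a carries an initiation factor's name but is known to help ribosomes through difficult stretches in elongation and in termination. It was at 929, 721 and 877 CPM for siblings, 672, 922 and 1151 CPM for mafba, 522, 983 and 986 CPM for mafbb and 925, 918 and 1620 CPM for DMut. The groups overlapped (0.45 ± 0.34 in DMut against siblings, adjusted p = 0.814). With both eIF5A IDs counted as elongation factors and the modifying enzymes left out, the elongation share was 0.725% ± 0.147 in siblings and 1.46% ± 0.158 in DMut, and the initiation share 0.685% ± 0.052 and 0.684% ± 0.141. eif5b, which promotes the joining of the ribosomal subunits, and EIF6, which keeps the large subunit from joining, together took 0.0184% ± 0.00879 in siblings and 0.0151% ± 0.00548 in DMut. In mafbb replicates 1 and 3 they took 0.00144% and 0.00368%.

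**Figure D4:**
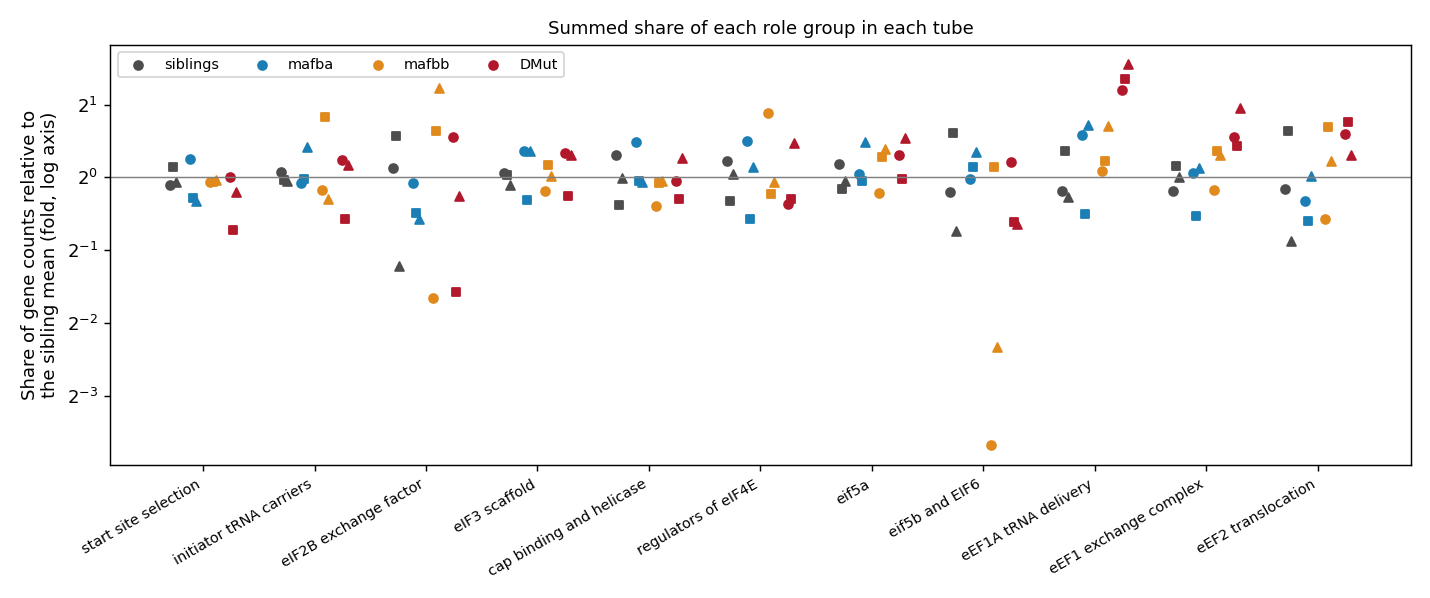
Summed share of gene counts of each role group in each tube, as fold of the sibling mean (log axis), with colours for genotypes and circle, square and triangle for replicates 1, 2 and 3. Only for eEF1A and the eEF1 exchange complex, grouped with EEF1E1, are all 3 DMut tubes above every other tube among the 11 groups drawn. Small groups such as eIF2B and the pair of eif5b and EIF6 scatter most.

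Members were found less often in the mafbb tubes. At least 10 counts were reached by 46 to 52 members per mafbb tube, 56 to 60 per sibling tube, 56 to 67 per mafba tube and 58 to 63 per DMut tube. The members with 0 counts in all 3 tubes numbered 17 in mafbb, 12 in siblings, 8 in mafba and 12 in DMut. In mafbb against siblings 5 initiation IDs and 1 elongation ID had an unadjusted p under 0.05 as lower, where 14.4% of all genes did, and 0.0735% of all genes were called in either direction. Every mafbb tube lay below every sibling tube for 8 initiation IDs and 1 elongation ID, beside 9.05% of all genes. The smaller number of genes and the larger spike-in share of these tubes moved with these zeros, and their part was not tested. In mafba against siblings 2 of 68 members had an unadjusted p under 0.05, and edgeR called no gene of the 9519, where 7.82% had an unadjusted p under 0.05. DESeq2 called eif4ebp3 and eef2a.1 there, and EIF2B4, EIF2S1, EIF4E, eif4eb and EEF1E1 in mafbb. In mafba it also called many genes outside the list, and its number over all genes in mafbb is not given here. These names are therefore no result about the members.

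Among other genes of protein synthesis, edgeR called RPL3, 1 of 82 ribosomal protein genes tested, as higher in DMut against siblings, where DESeq2 called 0 of them. In DMut against mafbb it called PDCD4, 1 of 11 poly(A) binding and cap control genes tested, as higher. The 84 ribosomal protein IDs held 3.44% to 4.91% of gene counts in siblings, 3.18% to 4.86% in mafba, 4.77% to 7.56% in mafbb and 5.60% to 7.04% in DMut. The DMut tubes were above all sibling tubes and overlapped with mafbb, and 80 of 82 log2 fold changes were above 0, with a median of 0.80. There were 0.151 ± 0.0168 elongation counts per ribosomal protein count for siblings, 0.166 ± 0.0261 for mafba, 0.133 ± 0.0199 for mafbb and 0.205 ± 0.0296 for DMut. DMut replicate 1, at 0.173, lay below mafba replicates 1 and 3, at 0.183 and 0.180. Cytoplasmic tRNA synthetases held 0.157% ± 0.0362 of gene counts in siblings and 0.165% ± 0.0503 in DMut, and termination and recycling factors 0.0616% ± 0.0119 and 0.0597% ± 0.0138. TOR pathway genes held 0.0319% to 0.0331% of the sibling counts, and every mutant tube lay below that, at 0.0184% to 0.0245% in mafba, 0.00201% to 0.0233% in mafbb and 0.00391% to 0.0270% in DMut. Of 7 tested, 0 were called in DMut against siblings by edgeR or DESeq2, and 0 had an unadjusted p under 0.05 in edgeR. The eIF2 kinases and stress genes held 0.250% ± 0.119 in siblings and 0.158% ± 0.0292 in DMut. Poly(A) binding and cap control genes held 0.188% ± 0.0341 and 0.257% ± 0.0705, and the enzymes that modify eIF5A and eEF2 0.0139% ± 0.00248 and 0.00884% ± 0.00299. In these 6 lists edgeR called 0 genes in DMut against siblings, with 0 to 2 per list at an unadjusted p under 0.05, and DESeq2 called eif2ak2 and DPH7. RPL3, PDCD4, eif2ak2 and DPH7 are outside the rule for named genes and were chosen after their values were seen.

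Several markers moved with the elongation share between siblings and DMut. Beside the smaller share of microglia markers, the 6 matched pan-myeloid IDs held 0.317% to 0.410% of gene counts in siblings and 0.547% to 0.725% in DMut. In mafba they held 0.347% to 0.596%, which overlapped with DMut. CORO1A, LCP1, cyba and cybb had more counts in DMut than in siblings. ptprc (4898 counts in siblings, 3128 in DMut) and spi1a (15913 and 8368) had fewer. Of the 6 matched neutrophil IDs 0 had a count in siblings and 4 had one in DMut, with 0.0303% to 0.0591% of gene counts, most of it from EPX. Cell cycle markers held 0.00623% to 0.0776% in siblings, 0.0807% to 0.355% in mafba, 0.00747% to 0.0831% in mafbb and 0.0822% to 0.136% in DMut. The list was split. AURKB (367 counts in siblings, 116 in DMut), TOP2A (78 and 0) and CCNB1 (3 and 0) had fewer in DMut, and CDK1 had 0 in both. The counted IDs of MCM2 to MCM7, PCNA, RRM2 and mki67 had more. mafba replicate 2, the tube with most cell cycle counts, had the lowest elongation share of all 12 tubes. Of the 4 matched radial glia IDs, GFAP and her4.1 had 0 counts throughout, and the 2 GLUL IDs made the list 0.354% to 0.936% of gene counts in siblings and 0.00804% to 0.0163% in DMut. They went opposite ways. ENSDARG00000099776 had 239419 counts in siblings and 498 in DMut, and ENSDARG00000100003 had 664 and 3761. Epidermal and metaphocyte markers took at most 0.00873% in a sibling tube, 0.113% in a mafba tube (replicate 3) and 0.140% in a DMut tube. DMut replicates 1 and 2 held less than that mafba tube, 0.0311% and 0.0123%. Most of these counts in mafba and DMut were cldni, 17387 and 18546. Neuronal markers took at most 0.0101% in any tube, and the 5 matched erythroid IDs had 0 counts throughout. The part of cell identity and of the number of cycling cells in the elongation result was not tested, and with 3 cells pooled per tube a different mix of cells and a different level per cell cannot be told apart.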

How the data were processed

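Raw counts, whole numbers without normalization, were deposited by the authors as 1 table of 35117 gene IDs and 92 spike-in sequences in 12 tubes. Per the submitters' processing notes, Trim Galore trimmed the reads and STAR aligned them to GRCz11 (danRer11). The sources used here give no tool versions, counter, annotation release or strand. Symbols, given to 27000 IDs, came from a table of gene names. Depth was 10014888 to 17689266 counts per tube, without molecular identifiers, so floors cover counting error only.

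edgeR 4.0.16 (R 4.3.3) was used for the tests. After filterByExpr (count of 10, total of 15) 9519 genes remained. Library sizes got TMM factors, and a quasi-likelihood fit over all 12 tubes, robust=TRUE, had 1 term for each genotype. The Benjamini-Hochberg threshold for a call was 0.05, and the common dispersion came to 4. The script was tested on simulated data. Some values are not reported here.

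The rule names members called in any comparison, the 4 per direction with the smallest p against siblings, the 6 initiation and 6 elongation IDs with the largest mean CPM, those with 0 counts in a genotype but at least 10 in every tube of another, and paralogues of called genes. Members and lists were chosen with earlier results of these data known. Alternatives were DESeq2 size factors, library size alone, spike-in scaling, no filter, robust=FALSE, a replicate block, DESeq2 1.42.0, the compared groups alone, each tube left out, mafba replicate 2 with mafbb replicate 3 left out, and other groupings and denominators.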

Additional observations from a re-analysis of the deposited data

How the results depend on the processing

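For eef1a1l1 in DMut against siblings the log2 fold change ran from 1.32 to 1.94 over all alternatives and was above 0 in each. The number of members called fell from 1 to 0 without siblings replicate 1, and over the tubes left out it ranged from 0 to 1. Against mafbb the call was lost with DESeq2 size factors (0 members, adjusted p = 0.0628), no filter (0, adjusted p = 0.089) and robust=FALSE (0, adjusted p = 0.0682), and with tubes left out the number ranged from 0 to 1. It was lost without mafbb replicate 1 or 2 and without DMut replicate 2 or 3, with adjusted p from 0.104 to 0.110. Against mafba, 1 member (eef1a1l1) was called with the replicate block (adjusted p = 4.91e-06) and 0 to 1 with tubes left out, the calls coming without siblings replicate 2, mafba replicate 3 or DMut replicate 1. The test over all genotypes called 0 to 1 members with tubes left out, and 0 without DMut replicate 2 or 3. With mafba replicate 2 and mafbb replicate 3 both left out, the call against siblings held (adjusted p = 0.00061). The causes were not tested.

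Over all gene IDs DESeq2 called 855 genes in DMut and 572 in mafba against siblings, where edgeR called 68 and 0. Of the members it called others, 2 in DMut, 2 in mafba and 5 in mafbb against siblings, 1 in DMut against mafba, 6 in DMut against mafbb, 6 in mafba against mafbb, 3 in the interaction and 0 over all genotypes. Apart from DMut and mafba against siblings, the number of all genes called by DESeq2 is not given here. Those counts are therefore no result about the members. Spike-in scaling called 7 members in DMut against mafbb and 2 in mafba against mafbb. The number of all genes called with it is not given here, so these counts are no result about the members. Spike-in scaling moved the fold changes of all genes by 0.44 in DMut, 0.54 in mafba and -1.28 in mafbb (median, log2). Library size alone moved those in DMut by -0.13. With spike-in scaling the median of initiation IDs was 0.70 in DMut and -1.45 in mafbb, and that of elongation IDs was -1.26 in mafbb. In mafbb against siblings it also turned eef1a1l1 to -1.17 and EIF5 to -0.94. With tubes left out, mafba against siblings ranged from -0.71 to 0.031 for EEF1G and from -0.67 to 0.095 for EIF1, turning without siblings replicate 2, and mafbb against siblings ranged from -0.36 (without mafbb replicate 2) to 12.58 for EIF2B4. In the single-mutant comparisons named here edgeR called none of these 5 under any alternative, and DESeq2 called EIF2B4 in mafbb (adjusted p = 0.0435).

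Without ribosomal protein and mitochondrially encoded genes in the denominator, the initiation share was 0.871% in siblings and 0.913% in mafbb, and the elongation share 1.51% in DMut. With eif5a counted as elongation, the initiation share was 0.685% in siblings and 0.672% in mafbb. Without its largest member, eif5a, it was 0.706% and 0.704%. Without eef1a1l1 the elongation share was 0.263% for siblings, 0.242% for mafba, 0.305% for mafbb and 0.406% for DMut. Tubes with the same replicate number did not deviate together across genotypes (18 correlations over genes from -0.024 to 0.034, 0 of them over 0.1), so the numbers are not taken to pair tubes, and the block changed no other call of a member. With a common dispersion of 4 and 3 tubes per group, small differences in members with few counts were not detectable, and large ones could go uncalled by edgeR. By the floor, eef2a.1 in mafba was at least 506-fold lower than siblings (edgeR adjusted p = 0.608). EEF1E1 in mafbb was at least 413-fold lower (edgeR adjusted p = 0.263). These bounds cover counting error only, and both genes also had 0 counts in some tubes of other genotypes, so the bounds are not effect sizes. A missing edgeR call for such members therefore does not show that they were unchanged, and the bound does not show that they changed.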
